A study of Mus musculus with 21 samples.

Results

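Fgfr1, Fgfr2, Fgfr3, Fgfr4 and Fgfrl1, the mouse receptors for fibroblast growth factors (FGFs), and the ligands Fgf1, Fgf2, Fgf7 and Fgf10 were followed through 3 mouse cell lines. These 9 genes were taken by symbol from the 48440 genes of the count table, and the 63 annotated transcripts of Fgfr1, Fgfr2 and Fgfr3 from its 117667 transcripts. Of the 9 genes, 8 passed the filter on low counts and were tested among 21237 genes. Fgfr4, the receptor of liver and muscle, did not pass. The study manipulated Esrp2-as, a long noncoding RNA annotated as 1810019D21Rik and transcribed antisense to Esrp2, and sequenced total RNA depleted of ribosomal RNA. The groups were 3T3-L1 cells overexpressing Esrp2-as (2 biological replicates) and their controls (2), M27H4 cells overexpressing it (3) and their controls (3), and M6 cells with Esrp2-as knockdown by antisense LNA gapmers (2) and their controls (2). M6 and M27H4 were derived from mammary tumours of C3(1)SV40 TAg mice, in which a rat C3(1) promoter drives the SV40 T antigen in the mammary gland, and 3T3-L1 is a mouse preadipocyte line. All lines were grown in the same serum-containing medium. The labels name an empty vector for the control cells of all 3 lines, M6 included, and give no control gapmer. Each line stands for 1 origin of cells, so a difference between lines cannot be told apart from a difference between the tissues, mice or culture histories they came from.

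FGFs bind receptor tyrosine kinases together with heparan sulfate, and the paired receptors signal mainly through the adaptor Frs2 to the Ras and ERK pathway. The part of the receptor that selects the ligand is the C-terminal portion of the third immunoglobulin domain, which Fgfr1, Fgfr2 and Fgfr3 can each encode by either of a pair of mutually exclusive exons, called IIIb and IIIc. In the mammary gland and other organs, epithelial cells mostly carry the IIIb form of Fgfr2 and mesenchymal cells the IIIc form, while mesenchymal cells make Fgf7 and Fgf10, ligands of the IIIb form. Esrp1 and Esrp2 are epithelial splicing proteins that favour the IIIb exon of Fgfr2.

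The IIIb exons of Fgfr2 and Fgfr3 are shown because the isoform shares reported for these receptors depend on whether a transcript holds them. They lie in the coding part of the genes on GRCm38, and both are GENCODE reference sequence read 5′ to 3′ on the gene's own strand. Capitals mark the bases that are identical in both exons when they are aligned.
Fgfr2 IIIb exon: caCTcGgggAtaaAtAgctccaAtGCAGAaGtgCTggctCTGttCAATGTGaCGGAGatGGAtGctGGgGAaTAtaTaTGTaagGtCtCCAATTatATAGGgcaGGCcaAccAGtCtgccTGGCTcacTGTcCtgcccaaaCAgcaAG
Fgfr3 IIIb exon: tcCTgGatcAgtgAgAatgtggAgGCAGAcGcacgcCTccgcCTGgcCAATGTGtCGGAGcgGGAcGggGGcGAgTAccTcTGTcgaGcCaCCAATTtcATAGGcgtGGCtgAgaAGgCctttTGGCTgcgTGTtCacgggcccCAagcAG

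The IIIb exon of Fgfr2 lies at chr7:130199758-130199905 on the minus strand and measures 148 bases. That of Fgfr3 lies at chr5:33731281-33731431 on the plus strand and measures 151 bases. The aligned exons were identical at 77 positions, 50.99% of the alignment. The IIIb exon is held by 2 annotated transcripts of Fgfr1, 10 of Fgfr2 and 4 of Fgfr3, and the IIIc exon by 4, 5 and 6. Another Fgfr1 transcript, Fgfr1-208, holds both exons and entered neither sum.

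Totals per replicate ran from 34892461 to 328493417 counts, and levels are given as CPM, counts scaled to a common effective library size, with the SD between replicates. Esrp2-as stood at 35.5 to 45.8 CPM in overexpressing 3T3-L1 cells against 0.25 to 0.355 in their controls, and at 15.9 to 65.9 CPM in overexpressing M27H4 cells against 0.731 to 1.25 in theirs. In M6 it stood at 0.527 to 0.851 CPM after knockdown, against 2.42 to 2.96 CPM in controls, with a log2 fold change of -1.92 that edgeR did not call (adjusted p = 0.363) and DESeq2 did (adjusted p = 0.03). The labelled cell types were checked on marker genes. The 12 mammary epithelial markers summed to 19.4 to 26.8 CPM in 3T3-L1, 147 to 284 in M27H4 and 3730 to 5030 in M6. The 12 fibroblast and preadipocyte markers summed to 7820 to 9660 CPM in 3T3-L1, 1870 to 2250 in M27H4 and 321 to 575 in M6. By these sums M27H4, although of mammary tumour origin, held fewer epithelial transcripts than M6 and more than 3T3-L1. Its sums rest mainly on Cdh1 (80.3 to 168 CPM) and Krt18 (36.2 to 76.5 CPM), and on Vim (899 to 1300 CPM) and Pdgfra (673 to 929 CPM). Single markers can go the other way, as Fbn1 stood at 14.4 to 27.1 CPM in M27H4 and 30.3 to 46.7 CPM in M6. Most of the 12 epithelial markers overlapped between M27H4 and 3T3-L1, such as Epcam (0.0488 to 8.85 and 2.9 to 3.8 CPM). Only Cdh1, Krt8, Krt18 and Elf3 lay higher in M27H4 without overlap. The 6 mature adipocyte markers did not exceed 4.27 CPM in sum in any replicate. The last number in a column name was taken as its sequencing lane. Columns of the lane whose labelled samples are all M6 (the M6-only lane) held 0 to 0.247 CPM of Col1a2. This fibroblast collagen gene stood at 2930 to 3740 CPM in 3T3-L1. M6 columns run on lanes with the other lines held 14.9 to 24.1 CPM of it. The M27H4 columns of a lane assigned to M27H4 alone held 0.888 to 1.07 CPM, and those on shared lanes 23.7 to 43.9 CPM. The M6 columns on shared lanes also carry other sample numbers in their names than those of the M6-only lane. Lane and library can thus not be told apart in M6, for Col1a2 or for the members. The labels do not say whether replicates were separate cultures, so p-values may measure only technical spread, and in bulk RNA fewer cells with a transcript and less of it per cell cannot be told apart.

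Within each line the members were ordered by TPM, which divides counts by transcript length. In 3T3-L1 the highest was Fgf7 with a median of 63.4 TPM (55.1 to 71.7 over 4 replicates), followed by Fgfr1 (21.3 TPM), Fgfrl1 (17.8 TPM) and Fgfr2 (11.0 TPM). The ranges of Fgfr1 (16.8 to 22.5 TPM), Fgfrl1 (15.4 to 20.3 TPM) and Fgfr2 (7.84 to 16.7 TPM) overlapped between neighbours. In M27H4 the order was Fgfr1 (29.8 TPM), Fgfrl1 (9.17 TPM), Fgf2 (5.71 TPM) and Fgfr2 (2.42 TPM), and the ranges of Fgfrl1 and Fgf2 overlapped. In M6 Fgfr1 (38.1 TPM) came first and Fgfrl1 (25.2 TPM) second, with overlapping ranges, followed by Fgf1 (1.34 TPM) and Fgfr2 (1.1 TPM). Fgfr1 was thus the first receptor in all 3 lines, and the ligand with the highest median TPM was Fgf7 in 3T3-L1, Fgf2 in M27H4 and Fgf1 in M6.

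**Figure D1:**
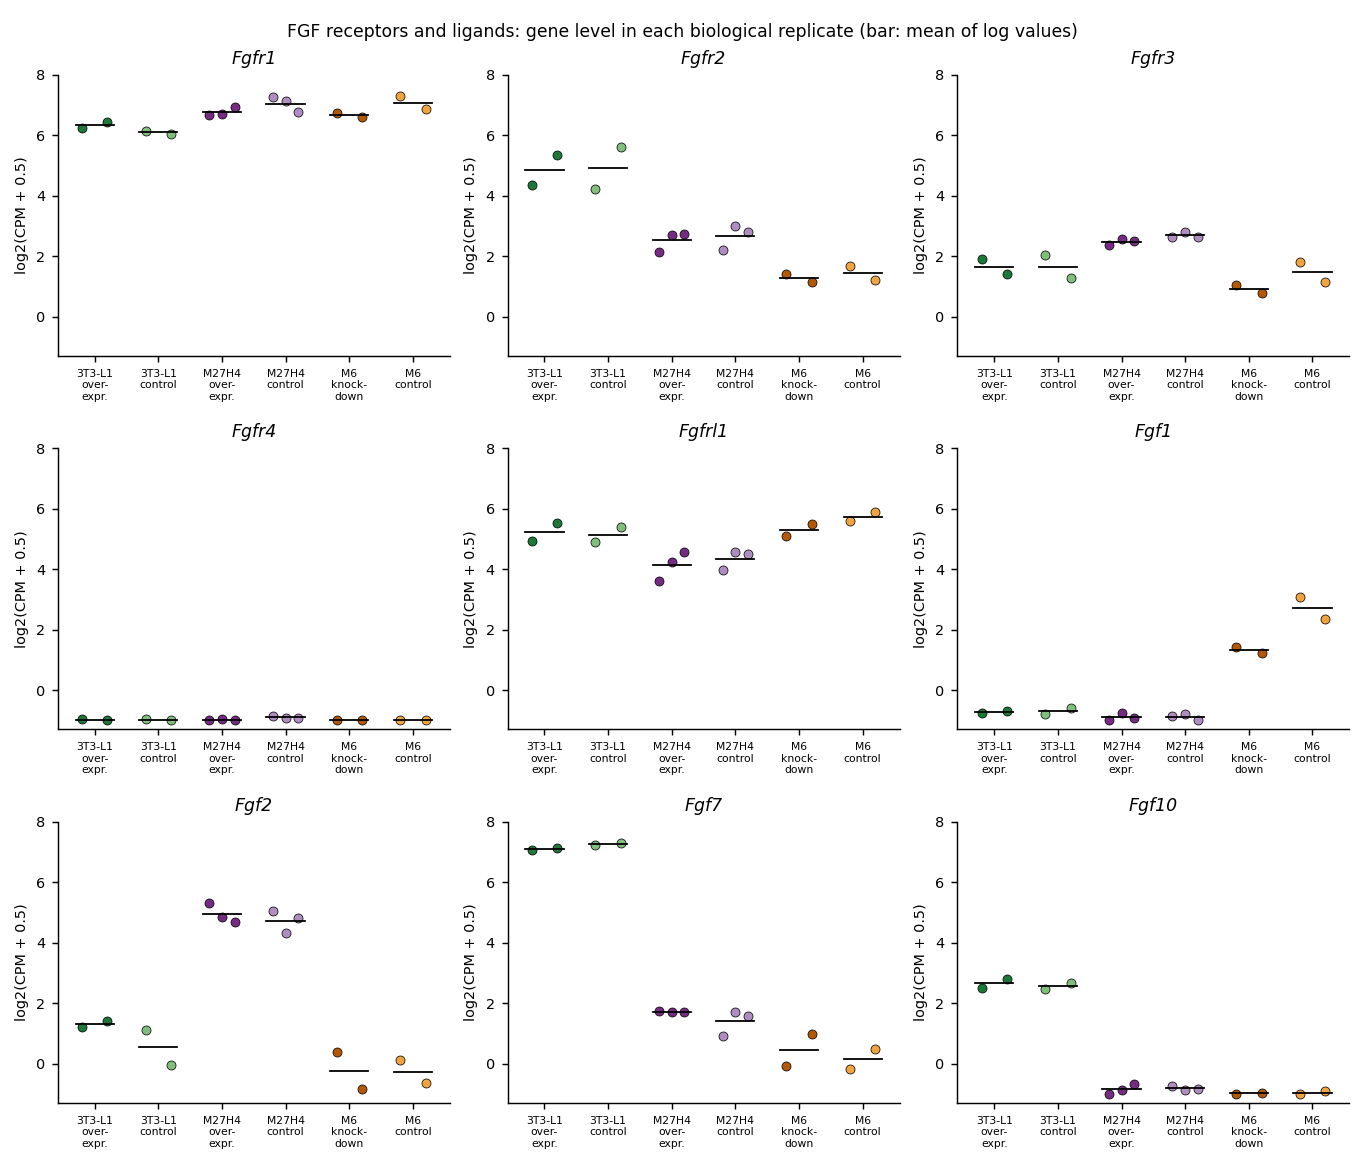
Each panel shows 1 gene and each point 1 biological replicate on a log2(CPM + 0.5) axis, with groups from left to right being 3T3-L1 overexpression and control, M27H4 overexpression and control, and M6 knockdown and control, and a bar at the mean of the log values. Fgf7 and Fgf10 are high in the 4 replicates of 3T3-L1, Fgf2 in the 6 of M27H4 and Fgf1 in the 4 of M6, while Fgfr1 is at 65.19 CPM or more in all 14 replicates and Fgfr4 near 0.

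Fgfr1 (ENSMUSG00000031565, chr8:25513654-25575718, plus strand), the receptor whose IIIc form answers Fgf2 in mesenchymal cells, was the receptor with the most even level. In 3T3-L1, Fgfr1 stood at 74.96 and 85.23 CPM in overexpressing cells and at 69.94 and 65.19 CPM in controls. In M27H4, Fgfr1 stood at 100.1, 103.5 and 121.8 CPM in overexpressing cells and at 151.8, 138.4 and 107.0 CPM in controls. In M6, Fgfr1 stood at 106.2 and 96.33 CPM after knockdown and at 155.4 and 115.2 CPM in controls. All 3T3-L1 values lay under all values of the other lines. Among controls, edgeR's quasi-likelihood test over 21237 genes with Benjamini-Hochberg adjustment put Fgfr1 lower in 3T3-L1 than in M27H4 (log2 fold change -0.97, SE 0.196, adjusted p = 0.00157) and than in M6 (-1.003, SE 0.21, adjusted p = 0.00185). M27H4 and M6 controls differed by -0.03 (95% interval -0.44 to 0.38).

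Fgfr2 (ENSMUSG00000030849, chr7:130162451-133123350, minus strand), the receptor for Fgf7 and Fgf10 in its IIIb form, spanned the widest range of the receptors. In 3T3-L1, Fgfr2 stood at 19.66 and 39.66 CPM in overexpressing cells and at 18.13 and 47.96 CPM in controls. In M27H4, Fgfr2 stood at 3.918, 6.033 and 6.103 CPM in overexpressing cells and at 4.144, 7.53 and 6.444 CPM in controls. In M6, Fgfr2 stood at 2.152 and 1.718 CPM after knockdown and at 2.712 and 1.821 CPM in controls. The lines did not overlap, and replicate 2 of both 3T3-L1 groups lay above replicate 1. Fgfr2 was 14.7-fold higher in 3T3-L1 than in M6 controls (log2 3.88, SE 0.511, edgeR adjusted p = 4.75e-05) and 5.46-fold higher than in M27H4 controls (log2 2.45, SE 0.414, adjusted p = 0.000415). Without 3T3-L1 control replicate 2 the log2 values were 2.98 and 1.61, with adjusted p = 0.000455 and 0.0145. It was higher in M27H4 than in M6 controls (log2 1.43, SE 0.441, adjusted p = 0.0254), a call that did not hold without M27H4 control replicate 2 (adjusted p = 0.0766) or 3 (0.055), or without M6 control replicate 1 (0.0555) or 2 (0.169).

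Fgfr3 (ENSMUSG00000054252, chr5:33721674-33737068, plus strand), known for restraining bone growth, was a low receptor in all lines. In 3T3-L1, Fgfr3 stood at 3.211 and 2.166 CPM in overexpressing cells and at 3.604 and 1.898 CPM in controls. In M27H4, Fgfr3 stood at 4.696, 5.449 and 5.096 CPM in overexpressing cells and at 5.737, 6.419 and 5.759 CPM in controls. In M6, Fgfr3 stood at 1.561 and 1.237 CPM after knockdown and at 3.022 and 1.72 CPM in controls. M27H4 lay above the other lines without overlap. Among controls Fgfr3 was lower in 3T3-L1 than in M27H4 (log2 -1.12, SE 0.339, edgeR adjusted p = 0.0197) and higher in M27H4 than in M6 (log2 1.34, SE 0.345, adjusted p = 0.00909). The first call was lost without 3T3-L1 control replicate 2 (log2 -0.71, adjusted p = 0.249) or M27H4 control replicate 2 (adjusted p = 0.0513), and the second without M6 control replicate 2 (adjusted p = 0.0941). Between 3T3-L1 and M6 controls the log2 difference was 0.23 (95% interval -0.55 to 1.01).

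Fgfrl1 (ENSMUSG00000008090, chr5:108692382-108706924, plus strand) encodes a receptor without a tyrosine kinase domain. In 3T3-L1, Fgfrl1 stood at 30.13 and 45.94 CPM in overexpressing cells and at 29.24 and 41.16 CPM in controls. In M27H4, Fgfrl1 stood at 11.56, 18.48 and 23.4 CPM in overexpressing cells and at 15.34, 23.02 and 21.96 CPM in controls. In M6, Fgfrl1 stood at 33.29 and 44.86 CPM after knockdown and at 47.12 and 59.19 CPM in controls. M27H4 was the low line, and 3T3-L1 and M6 overlapped. It was 2.65-fold lower in M27H4 than in M6 controls (log2 -1.405, SE 0.299, edgeR adjusted p = 0.00266). It was higher in 3T3-L1 than in M27H4 controls (log2 0.81, SE 0.299, adjusted p = 0.0494), which did not hold without 3T3-L1 control replicate 2 (adjusted p = 0.301) or without M27H4 control replicate 1 (0.147), 2 (0.0546) or 3 (0.0726). Fgfr4 (ENSMUSG00000005320, chr13:55152640-55168759, plus strand) had 0 to 6 counts a replicate, was at 0 in 8 of 14 replicates and had 21 counts over all of them. No fold is given for it. Of the receptors, Fgfr3 shares 998 exonic bases with G630022F23Rik and Fgfr1 164 with Gm16159, both on the opposite strand, and Fgfr2 shares 314 with Ctbp2 on the same strand, so part of their reads could be assigned to either gene.

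Fgf7 (ENSMUSG00000027208, chr2:126034658-126091185, plus strand), also called keratinocyte growth factor, separated 3T3-L1 from the tumour lines. In 3T3-L1, Fgf7 stood at 132.1 and 139.5 CPM in overexpressing cells and at 148.6 and 157.7 CPM in controls. In M27H4, Fgf7 stood at 2.807, 2.75 and 2.746 CPM in overexpressing cells and at 1.398, 2.777 and 2.471 CPM in controls. In M6, Fgf7 stood at 0.443 and 1.488 CPM after knockdown and at 0.3933 and 0.8925 CPM in controls. The 3T3-L1 range lay far above the others. Among controls it was 222-fold higher in 3T3-L1 than in M6 (log2 7.80, SE 0.575, edgeR adjusted p = 3.34e-07) and 68.5-fold higher than in M27H4 (log2 6.10, SE 0.442, adjusted p = 3.9e-07). In M6 the columns of the M6-only lane held 0.39 to 0.657 CPM and those on shared lanes 0.64 to 1.98 CPM. With the M6 columns of the M6-only lane, an alternative chosen after seeing the data, the difference of 3T3-L1 from M6 was 8.62 (adjusted p = 3.84e-09), and without M6 control replicate 2 it was 8.62 (adjusted p = 7.06e-06). The part of reads from other libraries in these low values was not tested. Fgf7 was also higher in M27H4 than in M6 controls (log2 1.70, SE 0.433, adjusted p = 0.00896). That difference was 2.53 with the M6-only lane (adjusted p = 2.12e-05), 2.52 without M6 control replicate 2 (0.0104) and 1.32 without M6 control replicate 1, where it was not called (0.0643).

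Fgf10 (ENSMUSG00000021732, chr13:118669791-118792115, plus strand), the mesenchymal ligand needed for limb and lung buds, followed the same order at a far lower level. In 3T3-L1, Fgf10 stood at 5.221 and 6.525 CPM in overexpressing cells and at 5.083 and 5.806 CPM in controls. In M27H4 the 6 replicates held 0 to 0.1319 CPM, and in M6 the 4 replicates held 0 to 0.03234 CPM, with both replicates 1 of M6 at 0. Fgf10 was 208-fold higher in 3T3-L1 than in M6 controls (log2 7.70, SE 0.866, edgeR adjusted p = 1.18e-05) and 85.1-fold higher than in M27H4 controls (log2 6.41, SE 0.667, adjusted p = 7.12e-06). All 4 M6 columns of the M6-only lane held no Fgf10 count and the 3 on shared lanes 0.0162 to 0.0578 CPM. The fitted difference of 3T3-L1 from M6 was 12.4 with the M6-only lane and 12.5 without M6 control replicate 2, where M6 is at 0 and the size depends on the prior count. M27H4 and M6 controls differed by 1.29 (95% interval -0.49 to 3.08).

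Fgf2 (ENSMUSG00000037225, chr3:37348346-37410108, plus strand), basic FGF, was high in M27H4. In 3T3-L1, Fgf2 stood at 1.821 and 2.14 CPM in overexpressing cells and at 1.688 and 0.4603 CPM in controls. In M27H4, Fgf2 stood at 39.57, 28.01 and 25.25 CPM in overexpressing cells and at 32.42, 19.42 and 27.68 CPM in controls. In M6, Fgf2 stood at 0.8016 and 0.06155 CPM after knockdown and at 0.5796 and 0.1358 CPM in controls. Every M27H4 replicate lay above every replicate of the other lines, while replicate 1 of both M6 groups exceeded replicate 2. Fgf2 was 87.3-fold higher in M27H4 than in M6 controls (log2 6.45, SE 1.12, edgeR adjusted p = 0.00139), with 7.60 and adjusted p = 0.00788 without M6 control replicate 1 and 5.52 and 0.0192 without replicate 2. It was 24.4-fold lower in 3T3-L1 than in M27H4 controls (log2 -4.61, SE 0.986, adjusted p = 0.00422), with -5.84 (0.0162) without 3T3-L1 control replicate 1 and -3.95 without replicate 2, where the call was lost (0.0533). The 2 lanes of the same library of M27H4 control replicate 2 gave 31.9 and 7.36 CPM. Fgf2 shares 640 exonic bases with Nudt6 on the opposite strand, and the strand setting used in counting is not given in the sources used here, so reads of the overlap may be assigned to either gene.

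Fgf1 (ENSMUSG00000036585), acidic FGF, which can bind every FGF receptor, was an M6 gene. The 4 replicates of 3T3-L1 held 0.08792 and 0.1154 CPM in overexpressing cells and 0.07737 and 0.1696 CPM in controls. The 6 M27H4 replicates held 0 to 0.09236 CPM. It stood at 2.215 and 1.841 CPM in M6 after knockdown and at 7.97 and 4.566 CPM in M6 controls, above all replicates of the other lines. Among controls Fgf1 was 131-fold lower in M27H4 than in M6 (log2 -7.04, SE 0.856, edgeR adjusted p = 3.1e-05) and 51.7-fold lower in 3T3-L1 than in M6 (log2 -5.69, SE 0.93, adjusted p = 0.00028). Leaving out a replicate moved the first to -8.39 (without M27H4 control replicate 2, adjusted p = 0.000119) or -6.45 (without replicate 3, 6.32e-05), and the second to -6.36 (without 3T3-L1 control replicate 2, 0.00349). The columns of the M6 control replicate 2 placed its Fgf1 counts on different transcripts: Fgf1-202 held 239 of 247 and 458 of 466 counts in a pair of them, and Fgf1-201 held 569 of 699 in the remaining one. Isoform use of Fgf1 is for that reason given no further.

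Counted over the set, 3 of the 8 tested members were higher and 2 lower in 3T3-L1 than in M6 controls, where 20.5% of all tested genes were higher and 18.9% lower. Against M27H4 controls, 4 members were higher and 3 lower in 3T3-L1, where 18.9% and 17.8% of all genes were. In M27H4 against M6 controls, 4 were higher and 2 lower, where 15.2% and 15.0% were. DESeq2 called 5, 7 and 6 members in these comparisons, the same numbers as edgeR. The median log2 change of the members was 1.03, 1.07 and 1.32, against 0.05, 0.02 and 0.02 over all genes. Each control group enters a pair of these comparisons and also its own comparison with the manipulated cells, so they are not independent. Fgf1, Fgf2, Fgf7 and Fgf10 passed the filter mainly through the line in which each is high, so these counts describe the set and lend it no support.

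**Figure D2:**
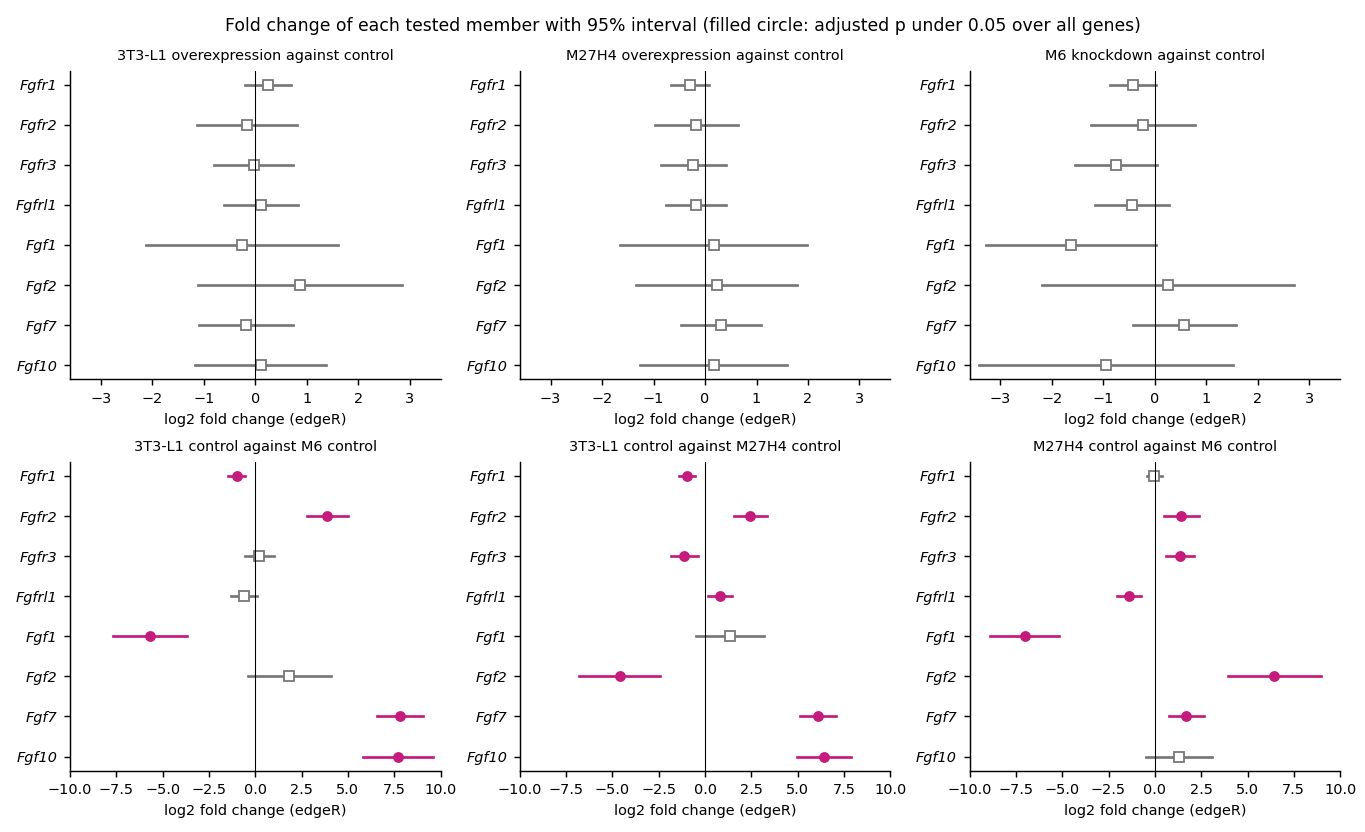
Each panel is 1 comparison and each row 1 tested member, with the edgeR log2 fold change and its 95% interval on the horizontal axis and filled circles where the adjusted p over all genes is under 0.05. All 24 values of the upper panels, which compare manipulated cells with their controls, are open squares, while 18 of the 24 between lines are filled circles. The horizontal axis is narrower in the upper panels.

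Esrp2-as was manipulated in each line, although edgeR did not call its own lower level in M6. No member was called in any comparison of manipulated cells with their controls. In M6 knockdown against control, edgeR called 0 of 8 members, with 0 at an unadjusted p under 0.05 and 0 by DESeq2, where 0.137% of all genes were called. In M27H4 overexpression against control it called 0 of 8, with 0 at an unadjusted p under 0.05 and 0 by DESeq2, where 0.00942% of all genes were. With a replicate block the M27H4 comparison had 1 gene called in place of 2, and still 0 members. In 3T3-L1 overexpression against control it called 0 of 8, again with 0 at an unadjusted p under 0.05 and 0 by DESeq2, where 0.00471% of all genes were. The median log2 change of the members was -0.43 in M6, -0.0015 in M27H4 and 0.04 in 3T3-L1, against -0.03, -0.03 and 0.0 over all genes.

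In M6, Fgf1 had the largest difference, with 2.03 ± 0.265 CPM after knockdown and 6.27 ± 2.41 CPM in controls (SD, n = 2 each) and no overlap. Its log2 fold change was -1.63 (SE 0.766, 95% interval -3.28 to 0.02, edgeR adjusted p = 0.813). Fgfr3 averaged 1.40 ± 0.229 CPM after knockdown and 2.37 ± 0.921 CPM in controls (log2 -0.76, interval -1.55 to 0.04, edgeR adjusted p = 0.839). Fgfr1 averaged 101 ± 6.98 CPM after knockdown and 135 ± 28.4 CPM in controls (log2 -0.42, interval -0.87 to 0.03, edgeR adjusted p = 0.853). The ranges of these genes and of Fgfrl1 (log2 -0.45, interval -1.16 to 0.27) did not overlap between the groups, and in each the knockdown cells were the lower ones. Fgfr2 (log2 -0.22, interval -1.24 to 0.79), Fgf7 (0.57, -0.42 to 1.57) and Fgf2 (0.26, -2.20 to 2.71) overlapped, as did Fgf10, whose counts were at or near 0. With 2 replicates a group the intervals are wide. Replicate 2 of knockdown and control shared only the M6-only lane, and their other columns lay on different lanes. Lane and knockdown can thus not be fully told apart in M6.

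In M27H4, Fgfr1 averaged 108 ± 11.7 CPM in overexpressing cells and 132 ± 23.0 CPM in controls (log2 -0.29, 95% interval -0.65 to 0.08). Fgfr3 averaged 5.08 ± 0.377 CPM in overexpressing cells and 5.97 ± 0.388 CPM in controls without overlap (log2 -0.23, interval -0.86 to 0.40). The other members overlapped between the groups, with intervals of -0.97 to 0.63 for Fgfr2, -0.76 to 0.41 for Fgfrl1, -1.35 to 1.80 for Fgf2 and -0.46 to 1.08 for Fgf7. Taken by same-numbered pairs, Fgfr2 and Fgfr3 were lower in overexpressing than in control M27H4 cells in 3 of 3 pairs, and the fit with the replicate block gave log2 values of -0.16 and -0.23 (edgeR adjusted p = 0.99 and 0.989). In 3T3-L1, Fgfr1 averaged 80.1 ± 7.26 CPM in overexpressing cells and 67.6 ± 3.35 CPM in controls without overlap (log2 0.25, interval -0.20 to 0.69). Fgf7 averaged 136 ± 5.25 CPM in overexpressing cells and 153 ± 6.43 CPM in controls, also without overlap (log2 -0.17, interval -1.09 to 0.74), and Fgf2 averaged 1.98 ± 0.225 and 1.07 ± 0.868 CPM (log2 0.86, interval -1.12 to 2.85). Fgfr2 (interval -1.13 to 0.82), Fgfrl1 (-0.60 to 0.83), Fgfr3 (-0.81 to 0.74) and Fgf10 (-1.16 to 1.38) overlapped between the groups. The edgeR adjusted p was 1.0 for every member in both lines. For Fgfr1 the effect in M27H4 minus the effect in 3T3-L1 was -0.53 (SE 0.269, edgeR adjusted p = 1.0), and no member passed this test of the difference.

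The isoforms of the receptors were then compared, as the counts on transcripts with the IIIb exon in percent of those with IIIb or IIIc. StringTie assigns reads to transcripts by a model, so these counts are estimates. For Fgfr1 the share in 3T3-L1 was 4.34% and 2.39% in overexpressing cells and 1.71% and 0.363% in controls. In M27H4 it was 0.0889%, 11.8% and 1.65% in overexpressing cells and 0.359%, 8.99% and 6.11% in controls. In M6 it was 34.2% and 31.9% after knockdown and 32.3% and 33.6% in controls. M6 lay above both other lines without overlap, also by sequenced column (0.306% to 4.47% in the 6 columns of 3T3-L1 and 0.089% to 20.95% in the 8 of M27H4, against 29.5% to 39.4% in the 7 of M6). The share differed by -30.8 points in 3T3-L1 against M6 (n = 4 and 4, two-sided exact permutation test, p = 0.0286, the smallest this design allows) and by -28.2 points in M27H4 against M6 (n = 6 and 4, exact permutation p = 0.00952, again the smallest possible). Adjusted over the 9 comparisons of a receptor between lines, both had p = 0.0857 by the exact permutation test and did not pass. These tests pooled the manipulated and control replicates of a line and took all of them as separate samples. Same-numbered replicates shared all lanes in 3T3-L1 and M27H4 and part of them in M6, and in M27H4 they were taken as pairs. The p-values may therefore be too small. Among controls alone the Fgfr1 share differed by -31.9 points in 3T3-L1 against M6 and by -27.8 points in M27H4 against M6, both without overlap, where the exact permutation test gave its smallest possible p (0.333 and 0.2).

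For Fgfr2 the IIIb share in 3T3-L1 was 12.4% and 13.7% in overexpressing cells and 3.26% and 3.40% in controls. In M27H4 it was 31.8%, 4.19% and 3.90% in overexpressing cells and 2.68%, 4.34% and 4.94% in controls, the first of these from 22 counts (95% Wilson interval 16.4% to 52.7%). In M6 after knockdown, replicate 1 had no count on either form among its 102 Fgfr2 counts and replicate 2 had 70.0% from 40 counts (54.6% to 81.9%). The column of replicate 2 on the M6-only lane held 12 IIIb and 0 IIIc counts. Its column on a lane without M6 controls held 16 and 12 (57.1%). In M6 controls the share was 94.1% and 98.4%, from 34 and 314 counts (80.9% to 98.4% and 96.3% to 99.3%). The columns of M6 control replicate 2 gave 80.0% to 100%. The forms counted were thus mostly IIIc in 3T3-L1 and M27H4 and mostly IIIb in M6, and the M6 replicates lay above all others. The difference was -79.3 points in 3T3-L1 against M6 (n = 4 and 3, exact permutation p = 0.0571, adjusted p = 0.129). It was -78.9 points in M27H4 against M6 (n = 6 and 3, exact permutation p = 0.0238, adjusted p = 0.0857). Both unadjusted values were the smallest these designs allow, reached because the ranges did not overlap. With so few replicates the test could not call the difference of 3T3-L1 from M6, whatever its size. 3T3-L1 and M27H4 differed by -0.45 points (n = 4 and 6, exact permutation p = 0.971). Wilson intervals cover counting error only.

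For Fgfr3 the share varied as much within a line as between lines. In 3T3-L1 it was 43.3% and 0% in overexpressing cells and 18.1% and 0.885% in controls. In M27H4 it was 5.23%, 15.0% and 38.1% in overexpressing cells and 0.912%, 12.0% and 0.727% in controls. In M6 it was 0% and 59.8% after knockdown and 17.8% and 78.7% in controls. The 0% of M6 knockdown replicate 1 came from 74 counts and that of 3T3-L1 overexpression replicate 2 from 191 counts (Wilson upper bounds 4.93% and 1.97%). Lanes of the same library differed as widely, with 89.9% and 0.562% in 3T3-L1 overexpression replicate 1. The Fgfr3 share differed by -23.5 points in 3T3-L1 against M6 (n = 4 each, exact permutation p = 0.371) and by -27.1 points in M27H4 against M6 (n = 6 and 4, exact permutation p = 0.143, adjusted p = 0.257). Lanes of 1 library also differed for Fgfr1 in M27H4 control replicate 2 (20.95% and 0.393%) and for Fgfr2 in 3T3-L1 overexpression replicate 1 (2.69% and 20.7%). The estimated shares of the forms thus varied between lanes of the same library. For Fgfr3 in 3T3-L1 overexpression replicate 1, the form with most counts changed with the lane.

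**Figure D3:**
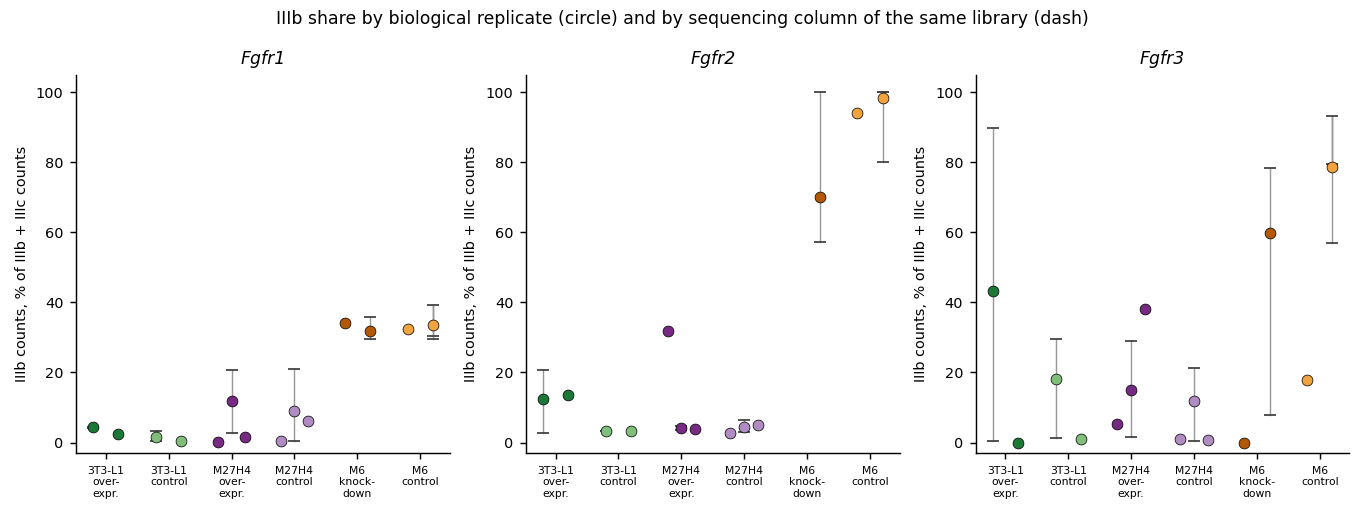
Each panel is 1 receptor and gives IIIb counts in percent of IIIb and IIIc counts, with a circle for each biological replicate, a dash for each sequenced column, and groups in the order 3T3-L1 overexpression and control, M27H4 overexpression and control, and M6 knockdown and control. M6 stands near 33% for Fgfr1 and at 70.0% to 98.4% for Fgfr2, above the other lines, while Fgfr3 spreads from 0% to 78.7% within M6.

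Within lines, the manipulated cells and their controls could not be separated at 0.05, since 2 replicates against 2 allow no exact permutation p under 0.333 and 3 against 3 none under 0.1. The Fgfr2 IIIb share of 3T3-L1 was 13.1% ± 0.894 in overexpressing cells and 3.33% ± 0.102 in controls (SD, n = 2 each), without overlap and with an exact permutation p of 0.333. The 2 columns of overexpression replicate 1 lay at 2.69% and 20.7%, on both sides of this difference. The Fgfr1 IIIb share of 3T3-L1 was 3.37% ± 1.38 in overexpressing cells and 1.03% ± 0.95 in controls (SD, n = 2 each), also without overlap (exact permutation p = 0.333), while 1 column of control replicate 1 stood at 3.33%, above the 2.39% of overexpression replicate 2. For Fgfr1 in M6 the shares differed by 0.0853 points, and for Fgfr1 in M27H4 by -0.633 points, against SDs of 0.956 to 6.37 points, and both overlapped. The shares of Fgfr2 in M27H4 (9.32 points) and of Fgfr3 in M6 (-18.3 points), M27H4 (14.9 points) and 3T3-L1 (12.1 points) also overlapped between manipulated cells and controls.

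A test of all transcripts of a gene was run next, with limma on arcsine-transformed shares, a Simes combination per gene and Benjamini-Hochberg adjustment over all genes tested. In 3T3-L1 against M6 controls, 2 of the 3 receptors were called, Fgfr2 (adjusted p = 0.00383) and Fgfr3 (0.0426), where 3.66% of all genes were. In M27H4 against M6 controls 1 was called, Fgfr2 (limma adjusted p = 0.006), where 0.954% of all genes were, and Fgfr3 reached 0.0679. In 3T3-L1 against M27H4 controls limma called 0 of 3, where 3.37% of all genes were called. At an unadjusted p under 0.05 there was 1 of the 3, and 997 of all 6707 genes. The Fgfr2 calls did not hold in fits of the compared groups alone (limma adjusted p = 0.146 and 0.149) or with the M6 columns of the M6-only lane (0.147 and 0.175). The Fgfr3 call did not hold with any single replicate left out (limma adjusted p = 0.0539 to 0.292). Fgfr1 was not called between any lines (limma adjusted p = 0.142 to 0.234).

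In the comparisons of manipulated cells with their controls, limma called none of the 3 receptors. In M6 knockdown it called 0 of 3, where 0.0604% of all genes were called. At an unadjusted limma p under 0.05 there were 2 of the 3, and 407 of all 6627 genes. In M27H4 overexpression it called 0 of 3, where 0.0% of all genes were, with 1 of the 3 and 246 of 6573 genes at an unadjusted p under 0.05. In 3T3-L1 overexpression it called 0 of 3, where 0.081% were, with 0 of the 3 and 337 of 7410 genes at an unadjusted p under 0.05. The M6 value nearest the threshold was Fgfr2 (limma adjusted p = 0.0994, and 0.00364 to 0.164 with a replicate left out). On untransformed shares it was 0.0362. Its transcript Fgfr2-211, a IIIb form, held 1.63% ± 2.30 of Fgfr2 counts after knockdown and 28.6% ± 5.96 in M6 controls (SD, n = 2 each).

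Much of the Fgfr2 RNA of M6 was counted on a transcript that holds neither exon. Fgfr2-226, annotated as a target of nonsense-mediated decay, held 76.5% and 68.1% of Fgfr2 counts in M6 after knockdown and 65.6% and 31.8% in M6 controls. In the other lines it reached 34.0% in M27H4 overexpression replicate 1 and 9.62% in M27H4 control replicate 3, and at most 3.92% in the 4 replicates of 3T3-L1. IIIb and IIIc transcripts together covered 15.6% of Fgfr2 counts in M27H4 overexpression replicate 1 and 79.5% to 93.5% in the other 9 replicates of 3T3-L1 and M27H4, against 0.0% to 55.8% in M6. The main IIIc transcripts in controls were Fgfr2-215, with 46.6% ± 0.81 of counts in 3T3-L1 and 33.4% ± 11.2 in M27H4, and Fgfr2-207, with 31.4% ± 9.13 in 3T3-L1 and 36.5% ± 11.0 in M27H4 (SD, n = 2 and 3).

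Fgfr1 also varied outside this exon pair. Fgfr1-203, a IIIc transcript that lacks a 267-base exon of the first immunoglobulin domain (chr8:25555508-25555774), held 52.6% ± 12.8 of Fgfr1 counts in overexpressing and 52.1% ± 9.86 in control M27H4 cells (SD, n = 3 each). It held 37.8% ± 1.23 in overexpressing and 28.8% ± 0.305 in control 3T3-L1 cells, and 24.4% ± 1.43 in knockdown and 20.8% ± 0.87 in control M6 cells (SD, n = 2 each). Of the Fgfr1 IIIc counts, the percentage without that exon was 46.8 and 41.2 in overexpressing 3T3-L1 cells, against 31.9 and 31.6 in their controls. It was 45.6 and 42.2 in M6 after knockdown, against 33.1 and 36.9 in M6 controls, and 49.6 to 66.8 in the 6 replicates of M27H4. M27H4 was the highest line. The manipulated cells lay above their controls in 3T3-L1, where Esrp2-as was overexpressed, and in M6, where it was knocked down. In M27H4 the groups overlapped, with 61.2, 49.6 and 66.8 in overexpressing cells and 66.4, 53.3 and 55.3 in controls. Columns of single replicates spread as far, with 33.0 and 60.0 in 3T3-L1 overexpression replicate 1 and 58.1, 31.4 and 31.2 in M6 control replicate 2. This exon was chosen after the transcript shares were seen, and it was given no test.

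**Figure D4:**
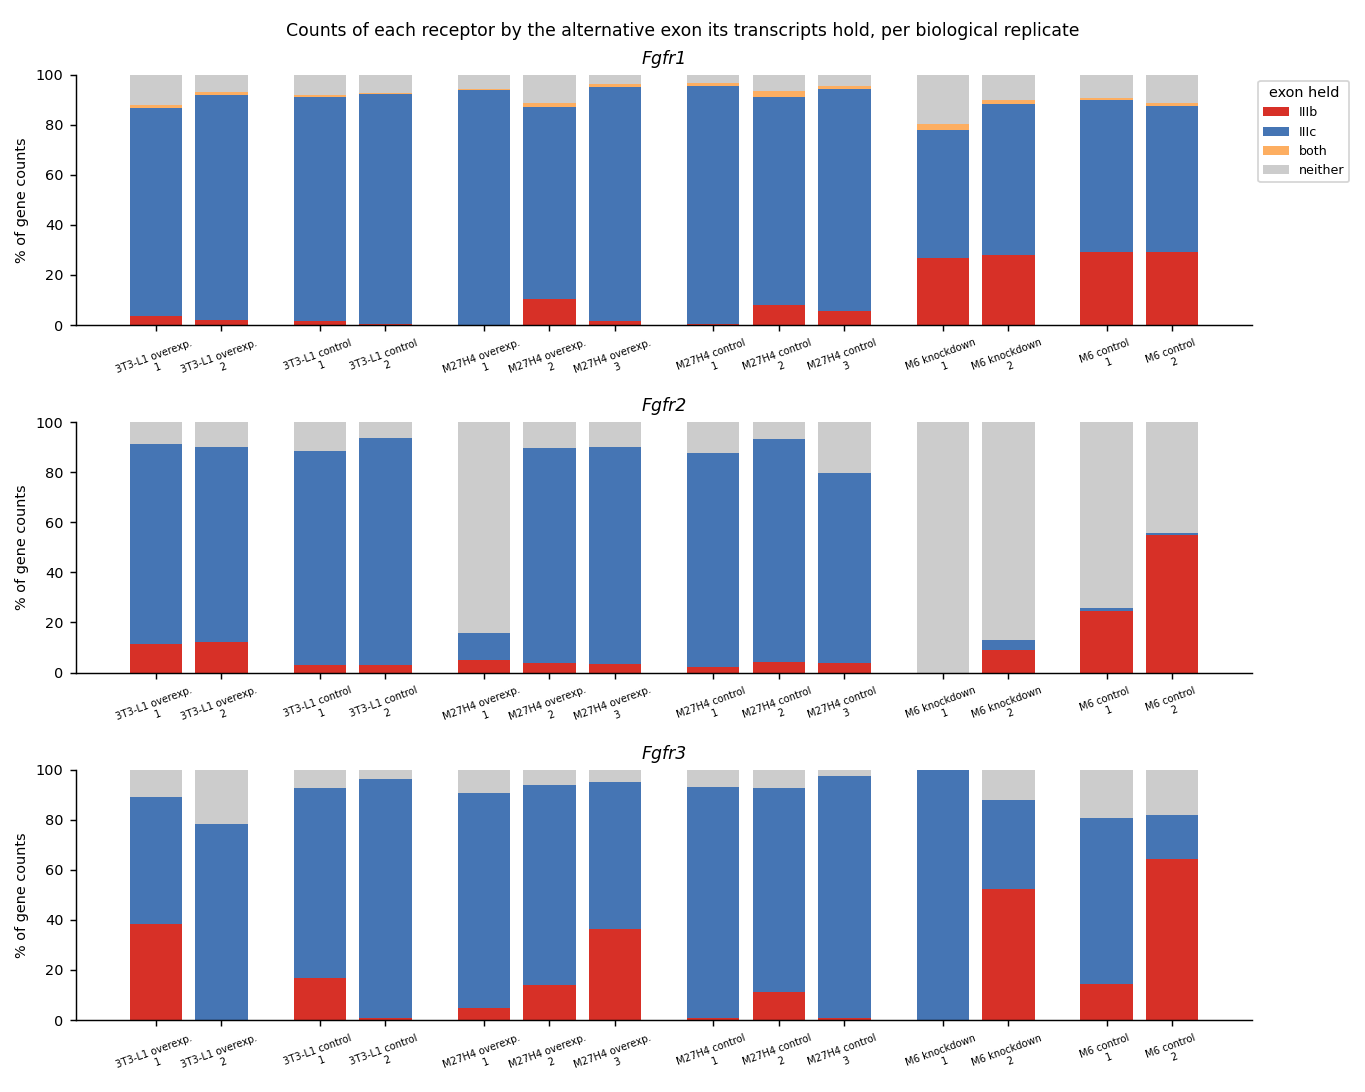
Each bar is 1 biological replicate and shows the percentage of a receptor's counts on transcripts that hold the IIIb exon, the IIIc exon, both or neither, with manipulated cells left of their controls in each line. IIIc makes up most of Fgfr1 in every replicate, and Fgfr2 in M6 is split between IIIb and transcripts with neither exon, which hold 44.2% to 100% of its counts there.

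The genes around the receptors were counted by lists. The counts between lines below are to be read against all tested genes, of which 20.5% were higher and 18.9% lower in 3T3-L1 than in M6 controls, 18.9% higher and 17.8% lower in 3T3-L1 than in M27H4 controls, and 15.2% higher and 15.0% lower in M27H4 than in M6 controls. No gene of the 7 lists was called by edgeR or DESeq2 in any comparison of manipulated cells with controls, with 0 to 2 of a list at an unadjusted p under 0.05. Those with the smallest p in M6 included Sulf2, an extracellular heparan sulfate 6-O-endosulfatase, with 126 ± 18.5 CPM after knockdown and 187 ± 37.3 CPM in controls (n = 2 each, log2 -0.57, edgeR adjusted p = 0.705). Sulf2 was also the one in M27H4, with 56.4 ± 1.69 CPM in overexpressing cells and 75.4 ± 5.47 CPM in controls (n = 3 each, log2 -0.42, edgeR adjusted p = 1.0). Etv1, an ETS transcription factor induced by FGF signals, had 2.16 ± 0.22 CPM in M6 after knockdown and 1.43 ± 0.149 CPM in controls (n = 2 each, log2 0.58, edgeR adjusted p = 0.715).

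Of the 14 regulators of the IIIb and IIIc choice, 1 was higher (7.14%) and 3 lower (21.4%) in 3T3-L1 than in M6 controls, and the share of lower ones was near the 18.9% of all genes. Esrp1 averaged 0.471 ± 0.133 CPM in 3T3-L1 and 114 ± 11.4 CPM in M6 controls (log2 -7.93, edgeR adjusted p = 0.00195). Esrp2, which overlaps Esrp2-as on the opposite strand, averaged 0.305 ± 0.0197 CPM in 3T3-L1 and 62.2 ± 5.12 CPM in M6 controls (log2 -7.67, edgeR adjusted p = 3.62e-09). Rbfox2, a splicing factor known to repress the IIIc exon of Fgfr2, averaged 250 ± 4.34 CPM in 3T3-L1 and 79.6 ± 3.01 CPM in M6 controls (log2 1.65, edgeR adjusted p = 1.51e-05). In M27H4 against M6 controls 1 was higher and 2 lower: Rbfox2 with log2 0.95, Esrp1 with -7.32 and Esrp2 with -2.23. Esrp2 kept 13.3 ± 1.89 CPM in M27H4 controls, so 3T3-L1 lay 5.44 below M27H4 on the log2 scale (edgeR adjusted p = 2.76e-08), where 2 regulators were higher and 2 lower. Across the lines the IIIb share of Fgfr1 and Fgfr2 was thus low in 3T3-L1 and M27H4, where Esrp1 did not exceed 1.03 CPM, and highest in M6, where Esrp1 stood between 95.6 and 122 CPM. With 3 lines that differ in many other genes, the part of any regulator was not tested.

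Of the other ligands, 5 of 14 passed the filter, and Fgf21, an endocrine FGF, was higher in 3T3-L1 (2.44 ± 1.17 CPM) than in M6 controls (0.0679 ± 0.096 CPM, log2 4.75, edgeR adjusted p = 0.00207). Among the intracellular homologous factors, which do not act through the receptors, Fgf13 averaged 0.0871 ± 0.0138 CPM in 3T3-L1, 0.121 ± 0.109 CPM in M27H4 and 17.2 ± 0.101 CPM in M6 controls. Kl and Klb, co-receptors of the endocrine FGFs, stayed at or under 0.0834 CPM in all replicates.

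Of 17 tested co-receptors and ligand-binding proteins, 9 were higher (52.9%) and 3 lower (17.6%) in 3T3-L1 than in M6 controls, and 6 higher (35.3%) and 5 lower (29.4%) in 3T3-L1 than in M27H4 controls. Gpc4, a glypican heparan sulfate proteoglycan, averaged 51.4 ± 8.89 CPM in 3T3-L1, 0.362 ± 0.341 CPM in M27H4 and 0.113 ± 0.16 CPM in M6 controls. Flrt2, of a family of membrane proteins that bind FGF receptors, averaged 42.8 ± 8.94, 0.524 ± 0.496 and 0.109 ± 0.125 CPM in the same order. Fgfbp1, a secreted carrier that frees FGFs from heparan sulfate, averaged 1.75 ± 0.678 CPM in 3T3-L1, 2.44 ± 2.08 CPM in M27H4 and 296 ± 102 CPM in M6 controls. Sdc1, the syndecan of epithelial cells, averaged 134 ± 9.58, 547 ± 104 and 2570 ± 590 CPM. Ncam1, a neural cell adhesion molecule that binds FGF receptors, averaged 156 ± 45.7 CPM in 3T3-L1, 463 ± 107 CPM in M27H4 and 0.969 ± 0.815 CPM in M6 controls. It was higher than in M6 controls in 3T3-L1 (log2 7.23, edgeR adjusted p = 2.45e-06) and in M27H4 (log2 8.80, edgeR adjusted p = 1.09e-06). In M27H4 against M6 controls, 6 of the list were higher and 4 lower.

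Of 12 genes of heparan sulfate synthesis and editing, 1 was higher (8.33%) and 8 lower (66.7%) in 3T3-L1 than in M6 controls. Hs6st2, a 6-O-sulfotransferase, was the higher one, with 55.9 ± 17.4 CPM in 3T3-L1 and 0.181 ± 0.256 CPM in M6 controls (log2 7.87, edgeR adjusted p = 0.00251), while its paralogue Hs6st1 was lower (log2 -1.70, adjusted p = 0.000195). Sulf1, the other endosulfatase, averaged 0.31 ± 0.244 CPM in 3T3-L1, 0.0332 ± 0.0575 CPM in M27H4 and 13.1 ± 6.53 CPM in M6 controls. In 3T3-L1 against M27H4 controls 4 were higher and 4 lower, and in M27H4 against M6 controls 1 was higher, the 3-O-sulfotransferase gene Hs3st1 (log2 3.29, edgeR adjusted p = 0.000936), and 4 lower.

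Of 20 adaptors and signal transducers, 2 were higher and 6 lower in 3T3-L1 than in M6 controls, 0 and 5 in 3T3-L1 than in M27H4 controls, and 3 and 2 in M27H4 than in M6 controls. The shares in 3T3-L1 against M6 were 10.0% and 30.0%, and those in M27H4 against M6, 15.0% and 10.0%, lay under those of all genes. Frs2, the docking protein of FGF receptors, averaged 28.2 ± 0.0684 CPM in 3T3-L1, 40.1 ± 7.74 CPM in M27H4 and 17.5 ± 4.43 CPM in M6 controls. Nras, a Ras GTPase, averaged 164 ± 0.512 CPM in 3T3-L1, 111 ± 36.6 CPM in M27H4 and 2240 ± 82.5 CPM in M6 controls.

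Of 17 tested feedback inhibitors and targets, 4 were higher and 2 lower in 3T3-L1 than in M6 controls, 2 and 5 in 3T3-L1 than in M27H4 controls, and 7 and 4 in M27H4 than in M6 controls. The shares in 3T3-L1 against M6 were 23.5% and 11.8%, near those of all genes, and in M27H4 against M6 41.2% and 23.5%. Spry1, a Sprouty inhibitor of the pathway, averaged 30.8 ± 4.59 CPM in 3T3-L1, 38.9 ± 4.75 CPM in M27H4 and 4.91 ± 0.575 CPM in M6 controls. Etv1 averaged 5.17 ± 0.437 CPM in 3T3-L1, 17.8 ± 1.6 CPM in M27H4 and 1.43 ± 0.149 CPM in M6 controls. Dusp6, the phosphatase that inactivates ERK, averaged 27.5 ± 7.28 CPM in 3T3-L1, 82.0 ± 21.9 CPM in M27H4 and 221 ± 99.8 CPM in M6 controls, and Dusp4 averaged 22.6 ± 8.33, 16.6 ± 7.01 and 219 ± 59.8 CPM. Spry1 and Etv1 were therefore lowest in M6, and Dusp4 and Dusp6 highest there.

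**Figure D5:**
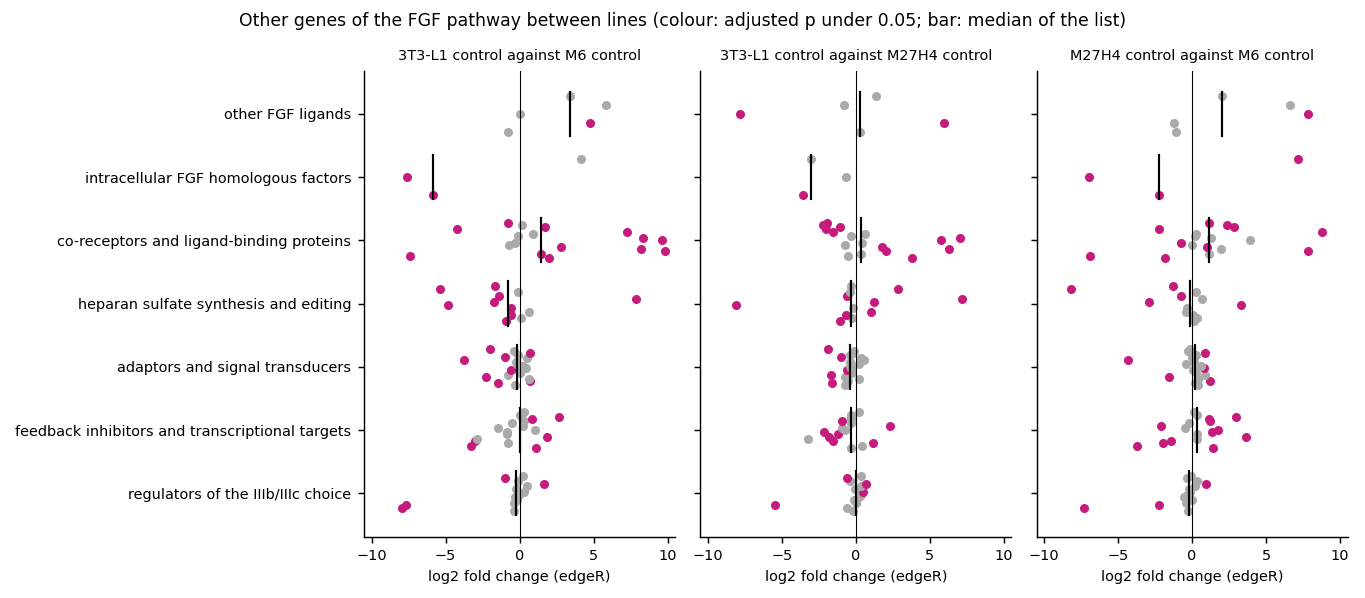
Each point is 1 gene of 1 list, placed by its edgeR log2 fold change in 3 comparisons of control cells between lines, with colour where the adjusted p over all genes is under 0.05 and a bar at the list's median. Single genes reach 9.85 above 0 (Flrt1, 3T3-L1 against M6) and 8.19 below it (Sulf1, M27H4 against M6). Flrt1 was at 0.0 CPM in all M6 replicates and at 0.759 to 0.959 CPM in 3T3-L1, and Sulf1 averaged 0.0332 CPM in M27H4 controls. The size of these folds thus depends on the prior count. The medians of the co-receptor list are 1.46, 0.33 and 1.13 in 3T3-L1 against M6, 3T3-L1 against M27H4 and M27H4 against M6.

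For each member the genes with the most similar level were listed by Pearson's r of log2(CPM + 0.5) over 14 replicates among 12044 genes. The replicates of a line share their cells, so r mainly describes the order of the 3 lines. Fgfr1 was followed by Ece1 (0.98), Ift140 (0.95) and Cux1 (0.95). Fgfr2 was followed by Arsg (0.99), Naip5 (0.98) and Spon2 (0.98), and Fgfr3 by Tbc1d31 (0.98), Akap2 (0.96) and Alg13 (0.96). Fgfrl1 came with Zscan21, Ppp1r16a and Ap5z1 (0.96 to 0.97). Among the ligands, Fgf7 came with Inka1, Zfp521 and Ifi211 (0.997 each). Fgf10 came with Foxd1, Dpep1 and Cela3b (0.998 each), Fgf2 with Spin4, Efemp1 and Trim24 (0.98 each), and Fgf1 with Slc5a9 (1.00), Col8a2 and Atp10b (0.99 each).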

How the data were processed

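Total RNA from 3 mouse cell lines was sequenced, with libraries made by a strand-specific SureSelect kit after Ribo-Zero Gold depletion, per the labels' protocols. Per the submitters' processing notes, the tools named were cutadapt, HISAT2, StringTie and edgeR on mm10 (GRCm38). Their versions, the annotation release and the strand setting are not given in the sources used here. The authors deposited expected counts, that is StringTie's estimated count of each of 48440 genes and 117667 transcripts as whole numbers, and these were analysed here. They also deposited normalised CPM values, a signal with low features left out. In each of those files of CPM values, 1 per-sample column matched no sample and was not used. It carried the number of the M6-only lane, so that lane may also hold a library of unknown cells. The deposited signal entered no main test.

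Identifiers were looked up in GENCODE M21 on GRCm38, where 48058 genes and 116824 transcripts matched, and the exons shown were aligned with MAFFT 7.526; some exon sequences are not reported here. The 21 columns were summed to 14 biological replicates in 6 groups, since the labels call the extra columns technical replicates. CPM used TMM-scaled totals, and TPM used transcript lengths. Genes were tested with edgeR 4.0.16 (quasi-likelihood, R 4.3.3) in 1 fit of all 6 groups, with 8 residual degrees of freedom, a biological coefficient of variation of 0.323, and calls at an adjusted p under 0.05. Transcript shares (20 gene counts or more in each replicate compared, a mean share of 5% or more) were tested with limma 3.58.1. IIIb shares were tested between lines by exact permutation with SciPy 1.17.1. Self-tests on simulated data were run. Alternatives included DESeq2 1.42.0, no filter on low counts, the compared groups alone, a replicate block, each replicate left out, and the M6 columns of the lane assigned to M6 alone, which for the comparisons between lines was chosen after seeing the data.

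Same-numbered replicates deviated together from their group means, with r = 0.592 in M6, 0.494, 0.257 and 0.338 in M27H4 and 0.433 in 3T3-L1. The numbers come from the labels. With 2 replicates a group, both pairs of M6 and of 3T3-L1 gave the same r, so each of these lines has 1 value. The numbers were taken as pairing only in M27H4, where 3 pairs were all over 0.1. The main fit used no pairing there either, and the blocked fit was kept as an alternative.

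The members and lists were chosen with earlier results of these data known. The text names all 9 members. Of each list it counts the calls and names from up to 3 genes called higher and 3 lower with the largest change and a mean of 1 CPM or more, or, with no call, the gene whose p was lowest. It names transcripts with a share of 5% or more, and the 3 genes most like each member.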

Additional observations from a re-analysis of the deposited data

Results flagged for a closer look

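The Fgfr2 IIIb share of M27H4 overexpression replicate 1 stood far from the others of its line. It was 31.8%, from 7 IIIb and 15 IIIc counts (95% Wilson interval 16.4% to 52.7%), against 2.68% to 4.94% in the other 5 replicates of M27H4. This replicate had the lowest total, 34892461 counts, and 141 Fgfr2 counts, of which 84.4% were on transcripts with neither exon. Of 8 sets of replicates examined, 1 held such a value, and chance gives about 1 in 20.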

How the results depend on the processing

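By gene level, no alternative called a member in a comparison of manipulated cells with controls. By transcript shares, Fgfr2 in M6 knockdown was called on untransformed shares (limma adjusted p = 0.0362), and its call also depended on the replicates kept. Between lines, Fgf10 was also called by gene level in M27H4 against M6 with the M6-only lane (log2 5.97, edgeR adjusted p = 0.0356). Apart from that, the number of members called between lines by gene level was the main one under every alternative that kept all replicates. With a replicate left out it was 5 in 3T3-L1 against M6, 4 to 7 in 3T3-L1 against M27H4 and 4 to 6 in M27H4 against M6. The replicate block changed no call of a member and turned the direction of 2 that were not called, Fgf2 in M6 (-0.23) and Fgfr3 in 3T3-L1 overexpression (0.0077); it gave 293 genes called in M6 (main 29), 1 in M27H4 (main 2) and 0 in 3T3-L1 (main 1), and 0 and 1 genes called by shares in M6 and 3T3-L1 (main 4 and 6). Genes called in M6 were 64 without the filter, 0 with the compared groups alone, 227 with DESeq2 and 6 to 60 with a replicate left out. In M27H4 they were 1 with the compared groups alone, 4 with DESeq2 and 1 to 2 with a replicate left out, and in 3T3-L1 overexpression 2 without the filter, 4, 12 and 0 to 5. Genes called by shares in M6 were 2 at a minimum of 100 counts, 7 untransformed, 0 with the compared groups alone, 25 with the M6-only lane and 7 to 328 with a replicate left out. In M27H4 overexpression they were 0 to 2 with a replicate left out, and in 3T3-L1 overexpression 3 at 100 counts, 0 with the groups alone and 9 to 46 with a replicate left out. Between lines they were 153, 0 and 103 to 303 in 3T3-L1 against M6 at 100 counts, the groups alone and a replicate left out (main 244), 102 and 101 to 183 in 3T3-L1 against M27H4 with the groups alone and a replicate left out (main 226), and 33, 18, 154 and 42 to 205 in M27H4 against M6 at 100 counts, the groups alone, the M6-only lane and a replicate left out (main 61). Directions that turned when a replicate was left out belonged to differences that were not called. In M6 knockdown these were Fgfr2 (-0.49 to 0.15), Fgf2 (-2.27 to 1.48), Fgf7 (-0.65 to 1.39) and Fgf10 (-4.92 to 3.87). In M27H4 overexpression they were Fgfr2 (-0.38 to 0.0224), Fgfrl1 (-0.42 to 0.0606), Fgf1 (-1.32 to 1.53) and Fgf10 (-0.68 to 0.47), and in 3T3-L1 overexpression Fgfr2 (-0.75 to 0.69), Fgfr3 (-0.43 to 0.51), Fgfrl1 (-0.22 to 0.38), Fgf1 (-0.75 to 0.36) and Fgf10 (-0.0608 to 0.26). Between lines they were Fgfr3 in 3T3-L1 against M6 (-0.36 to 0.69), Fgfr1 in M27H4 against M6 (-0.22 to 0.19, and 0.0127 with the M6-only lane), and in 3T3-L1 against M27H4 the IIIb shares of Fgfr2 (-2.28 to 4.19 points) and Fgfr3 (-5.65 to 8.80 points). The cause was not tested. Fgfr4, Fgf10 and Fgf1 outside the lines where they are high, and the forms of Fgfr2 and Fgfr3 in M6, rest on few counts, and Fgfr4 had 0 counts in the deepest replicate too (328493417 in all).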
